A study of Mus musculus with 13 samples.

Results

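The insulin-like growth factor (IGF) axis was examined here as 10 genes: the ligands Igf1 and Igf2, the receptors Igf1r and Igf2r, and the binding proteins Igfbp2, Igfbp3, Igfbp4, Igfbp5, Igfbp6 and Igfbp7. The data were ESR1 (estrogen receptor alpha) ChIP-Seq peak lists, in which each peak is a stretch of DNA recovered with an ESR1 antibody above local background. A locus was the gene body plus 50 kb on each side, and a peak belonged to it when its summit fell inside. The 10 loci held 1244 of the 686823 peaks in the 12 lists. Peaks that overlapped by at least 1 bp across libraries were merged into regions, of which 329 of 228284 lay in these loci.

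The cells were primary hernia-associated fibroblasts (HAFs) from the lower abdominal muscle of Aromhum mice, which carry the human aromatase gene. All 4 groups shared that genotype, were kept free of serum, and had 3 libraries each: vehicle (ethanol and DMSO), estradiol (E2) at 10 nM, the same dose of E2 plus fulvestrant at 100 nM (both agents), and fulvestrant alone at 100 nM. Cells received fulvestrant or DMSO first, and E2 or ethanol was then given for 1 hr. Fulvestrant blocks ESR1 and promotes its degradation. Whether the 3 libraries of a group came from separate mice or cultures was not given in the sources used here, so p-values measure the spread between libraries. Peak lists hold no expression values, so neither the fibroblast identity nor the activity of any gene could be read from them.

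IGF1 and IGF2 are secreted growth factors that signal through the receptor tyrosine kinase IGF1R, whereas IGF2R binds IGF2 and carries it to lysosomes. The IGF-binding proteins hold the ligands in the extracellular space and either limit or prolong their action; IGFBP6 prefers IGF2, and IGFBP7 binds IGFs only weakly. Estradiol is known to act on this axis in several tissues, and IGF1 is known for its roles in muscle growth and in fibroblast activation.

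A list held between 34293 and 104571 peaks. Relative depth, worked out from fold and p-value, was 92.0% to 106% of the median library in 10 libraries, 39.1% in E2 replicate 1 and 75.8% in fulvestrant replicate 2. In the same pair of libraries 59.4% and 27.9% of the peaks lay on repeat-masked sequence, against 5.57% to 7.79% in the other 10. E2 replicate 1 had 40 of the 329 regions to itself and fulvestrant replicate 2 had 36. Results are therefore given with all 12 libraries and, where the pair matters, without both.

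The rank of a peak in its own list, by the authors' −log10 q, was the measure of strength, with rank 1 the strongest. For tests, ranks were capped at 34293, the length of the shortest list, absent peaks were set to that value, and log2 ranks were compared between the 6 libraries given E2, alone or with the antagonist, and the 6 not given it. A negative difference means a better rank with E2, and stronger or weaker with E2 refers to this rank. Rank is relative to the other peaks of the same list, so it can worsen while the fold rises. The sequence around the summit is shown for 5 regions whose peaks were stronger or more often present with E2, in the mm10 assembly, on the plus strand. Capitals mark matches to the estrogen response element GGTCANNNTGACC with at most 2 mismatches in the 10 fixed bases or, where there was none, one arm of it, GGTCA or the reverse complement.
Igfbp6 locus, 23.5 kb upstream (chr15:102120757-102120957): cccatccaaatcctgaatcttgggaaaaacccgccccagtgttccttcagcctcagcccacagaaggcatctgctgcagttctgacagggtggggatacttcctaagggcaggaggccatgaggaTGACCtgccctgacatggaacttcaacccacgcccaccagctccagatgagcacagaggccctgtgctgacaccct
Igf1 locus, 45.8 kb upstream (chr10:87812387-87812587): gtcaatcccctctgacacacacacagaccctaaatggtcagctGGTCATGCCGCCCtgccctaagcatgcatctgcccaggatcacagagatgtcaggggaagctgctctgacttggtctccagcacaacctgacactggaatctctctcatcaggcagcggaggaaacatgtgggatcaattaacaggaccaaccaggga
Igf1 locus, 36.2 kb upstream (chr10:87821961-87822161): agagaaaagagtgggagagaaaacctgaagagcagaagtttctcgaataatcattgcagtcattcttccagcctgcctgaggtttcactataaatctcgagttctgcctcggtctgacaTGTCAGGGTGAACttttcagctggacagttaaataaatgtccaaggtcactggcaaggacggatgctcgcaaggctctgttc
Igf1r intron, 96.0 kb downstream of the start (chr7:68048716-68048916): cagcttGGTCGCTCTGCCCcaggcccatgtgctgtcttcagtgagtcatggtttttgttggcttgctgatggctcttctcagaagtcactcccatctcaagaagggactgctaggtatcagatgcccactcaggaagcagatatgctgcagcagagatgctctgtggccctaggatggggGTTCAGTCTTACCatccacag
Igfbp7 intron, 50.02 kb downstream of the start (chr5:77357924-77358124): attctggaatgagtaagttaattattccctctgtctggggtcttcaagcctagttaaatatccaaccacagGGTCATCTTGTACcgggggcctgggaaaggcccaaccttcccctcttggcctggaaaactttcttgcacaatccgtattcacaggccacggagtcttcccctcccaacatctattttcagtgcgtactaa

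ESR1 peaks were unevenly spread over the axis. Igfbp6 had 16.8 peaks per 100 kb per library, a density above that of 98.4% of protein-coding genes, and Igf2r had 12.2. Igfbp7 had 7.56, Igf1r 7.29, Igf1 6.53 and Igfbp4 5.23 peaks per 100 kb. Igfbp5 with 2.49, Igfbp2 with 2.41, Igfbp3 with 1.16 and Igf2 with 1.15 lay below the median of all protein-coding genes, which was 3.004. The Igfbp2 and Igfbp5 loci overlap and share most of their peaks, and the Igfbp6 locus holds 5 other protein-coding genes, so a peak there cannot be assigned to Igfbp6 by position alone.

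Of the 329 regions, 59.6% were intronic, against 39.7% of all regions, and 14.0% were intergenic, against 36.6%. The loci were drawn around gene bodies, which favours intronic over intergenic regions, so these shares are not a result about the genes. Promoter regions (summit within 3 kb of a start site) made up 20.7% of the regions here and 19.7% of all. A peak in all 12 libraries was found in 12 regions (3.65%, against 3.42% of all regions). In 191 (58.1%) a single library had the peak, against 64.2% of all regions. The 12 included the promoters of Igf1, Igf1r, Igf2r, Igfbp6 and Igfbp7.

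The first question was whether E2 changed the number of ESR1 peaks at these loci and whether fulvestrant changed it again. Vehicle libraries had 112, 75 and 90 peaks in the 10 loci together, and E2 libraries had 90, 120 and 132. With E2 plus fulvestrant there were 90, 104 and 129, and with fulvestrant alone 83, 130 and 89. The treatments overlapped, with means of 92.3 ± 18.6, 114 ± 21.6, 107.7 ± 19.8 and 100.7 ± 25.6 peaks (SD, n = 3 each) in that order. As a share of the library's own list the peaks made up 0.221% ± 0.00444 with vehicle and 0.158% ± 0.0625 with E2. The share was 0.206% ± 0.0126 with both agents and 0.184% ± 0.0195 with fulvestrant alone. E2 replicate 1 had 0.0861%, and E2 replicates 2 and 3 had 0.197% and 0.191%. When each list was cut to its strongest 34293 peaks, E2 replicate 1 had 33 peaks in the loci and the other 11 libraries had 64 to 81.

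**Figure D1:**
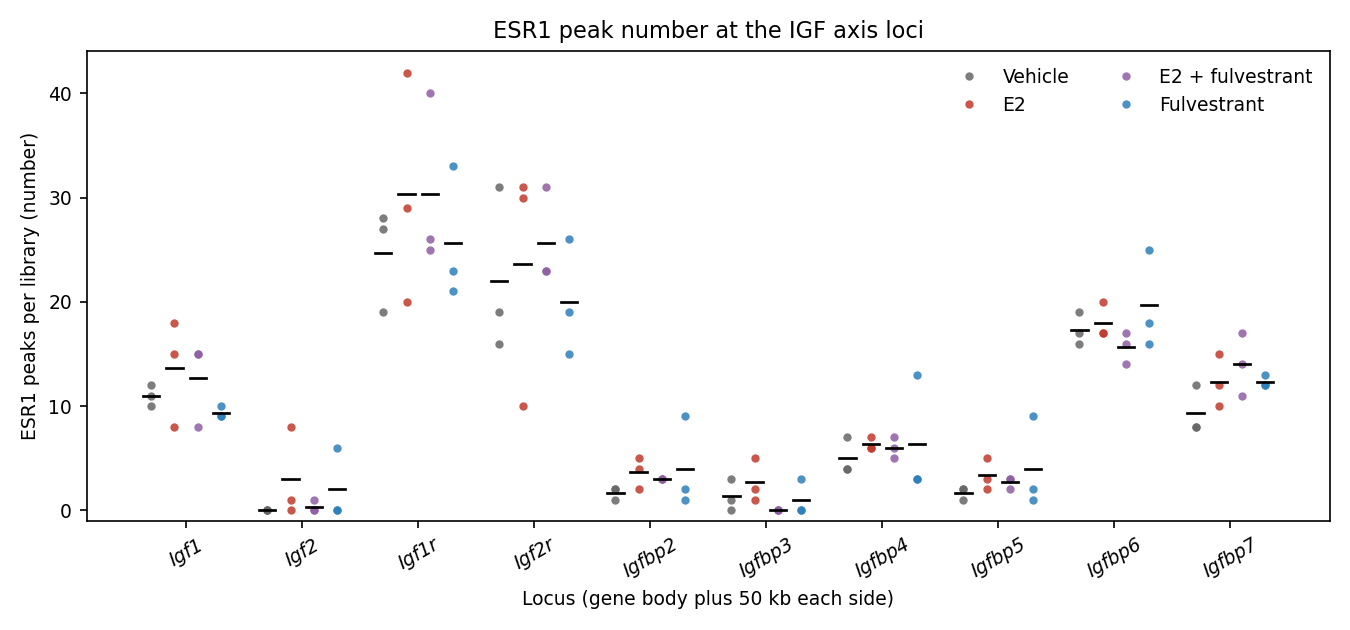
Number of ESR1 peaks per library (y axis) at each of the 10 loci (x axis), by treatment; points are libraries and black bars the mean of 3. The 4 treatments overlap at nearly every locus, Igf1r and Igf2r carry the most peaks, and Igf2 has none with vehicle.

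Locus by locus, the mean peak number was higher with E2 than with vehicle at 10 of 10 loci, by a median of 1.83 peaks, as it was at 89.9% of all protein-coding genes. With each list limited to its strongest 34293 peaks it was higher at 3 of 10 loci (41.1% of genes), and the mean number over the loci together was 19.7 peaks below that of vehicle. By library that number was 33, 69 and 64 with E2, replicate 1 being the lowest, and 69, 75 and 81 with vehicle. With full lists, the libraries of the 2 treatments overlapped at all 10 loci. Of all protein-coding genes, 15.8% had every E2 library above every vehicle library. Against E2 plus fulvestrant, Igfbp3 alone had E2 libraries that did not overlap, with 2, 1 and 5 peaks against 0, 0 and 0, in a comparison in which 7.44% of genes did so. Between E2 plus fulvestrant and vehicle, Igfbp2 alone was separated, with 3, 3 and 3 peaks against 2, 1 and 2 (4.08% of genes). Fulvestrant alone was separated from vehicle at 0 loci (4.09% of genes were higher). With 3 libraries against 3 the smallest p of the exact permutation test is 0.1, so these comparisons cannot pass 0.05. Given E2 against not given E2, none of the 10 loci had an exact permutation p under 0.05 for peak number (smallest 0.139), against 3.38% of genes with more peaks at that p.

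Restricted to peaks whose −log10 q reached 10, the E2 lists were richer at several loci. Igfbp7 had 2, 5 and 6 such peaks with E2, 1, 0 and 0 with vehicle, and 2, 1 and 1 with E2 plus fulvestrant. The shared Igfbp2 and Igfbp5 neighbourhood had 1, 2 and 1 with E2 and none in the other 9 libraries. Igf2r had 3, 5 and 4 with E2, 2, 0 and 0 with vehicle and 3, 4 and 3 with fulvestrant alone. Igfbp6 had 7, 6 and 6 with E2 against 3, 5 and 4 with vehicle. E2 was thus above vehicle without overlap at 5 of 10 loci, where 21.6% of all protein-coding genes were, and above E2 plus fulvestrant at 3 of 10 (Igfbp2, Igfbp5 and Igfbp6), where 16.2% were. Fulvestrant alone was above vehicle without overlap at Igf2r, 1 of 10 loci, as at 3.87% of genes. The 5 loci include the overlapping pair Igfbp2 and Igfbp5. E2 lists also held more such peaks genome-wide, 21472, 13945 and 18077 against 7003, 3981 and 3076 with vehicle.

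The next question was whether single regions were gained or lost with E2. Of the 54 regions at these loci with a peak in at least 6 libraries, 23 were stronger and 31 weaker with E2. Of the 29321 regions tested genome-wide, 44.0% were stronger. The median log2 rank difference was 0.08 at the loci, against 0.06 genome-wide. By the exact permutation test, 3 of the 54 were stronger at p under 0.05 (5.56%, against 6.09% of all regions) and 2 were weaker (3.70%, against 4.48%). None passed Benjamini-Hochberg adjustment over all tested regions, at these loci or elsewhere in the genome (smallest adjusted p = 0.385 by the exact permutation test), while 3100 regions had an unadjusted p under 0.05. Without E2 replicate 1 and fulvestrant replicate 2, 6 of the 54 were stronger (11.7% of all regions tested there were) and 1 was weaker (5.49% of all) at an unadjusted exact permutation p under 0.05.

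**Figure D2:**
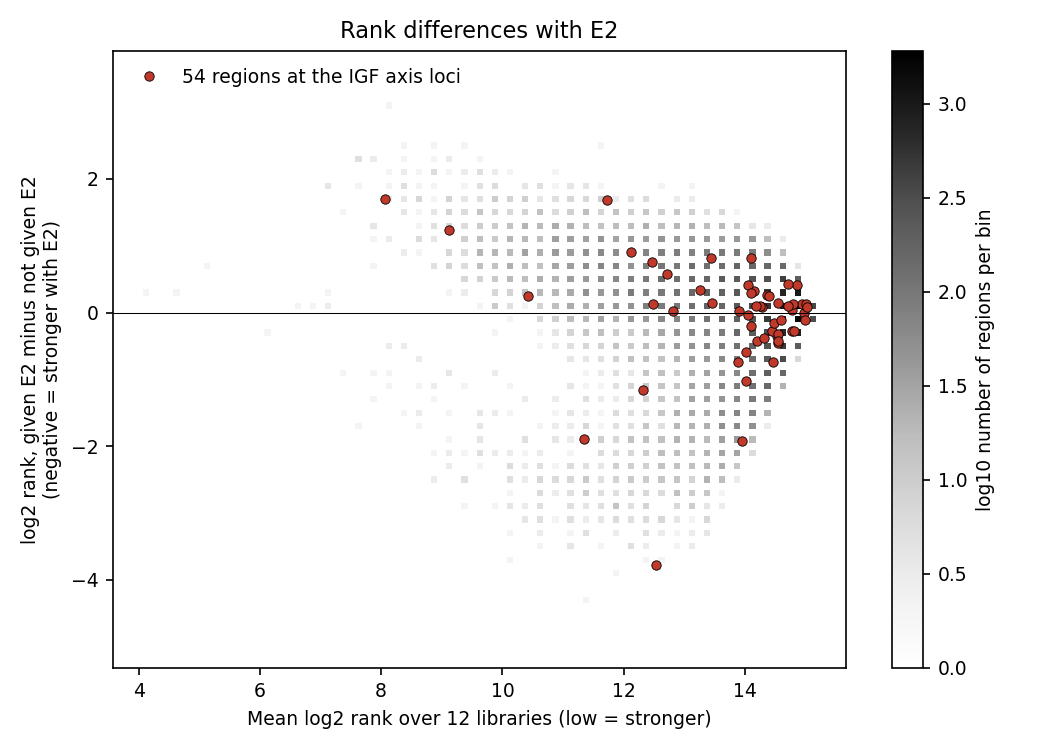
Mean log2 rank over 12 libraries (x axis, low is strong) and log2 rank difference, given E2 minus not given E2 (y axis), for the 54 regions at the IGF axis loci (red points) over the 29321 tested regions (grey squares, darker with more regions). Most red points lie near 0 and among weak peaks, and the lowest is the region 23.5 kb upstream of Igfbp6 at −3.78.

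Igf1, the main circulating and local ligand, had 36 regions and 2 of the 3 largest gains. At its strongest region over all libraries, an intergenic stretch 36.2 kb upstream (chr10:87821384-87822402), the fold over local background was 5.98, 6.43 and 5.43 with vehicle and 17.9 and 11.4 in E2 replicates 2 and 3. It was 6.09, 12.97 and 14.4 with E2 plus fulvestrant and 5.17 and 3.87 in fulvestrant replicates 1 and 3, while E2 replicate 1 and fulvestrant replicate 2 had no peak there. In rank, E2 replicates 2 and 3 had 344 and 1399, E2 plus fulvestrant 2233, 382 and 429, vehicle 3005, 1310 and 2104, and fulvestrant replicates 1 and 3 had 5623 and 9892. The groups overlapped, and the log2 rank difference was −1.89 (SD 2.54 given E2 and 1.71 not given it, n = 6 each; exact permutation p = 0.162, adjusted p = 0.593). It was −2.27 once E2 replicate 1 and fulvestrant replicate 2 were left out (exact permutation p = 0.0397, 5 libraries against 5), and −2.83 without E2 replicate 1 alone (exact permutation p = 0.0195). Of 22 alternative settings, only these 2 gave a p under 0.05.

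The second Igf1 region lay farther out, 45.8 kb upstream (chr10:87812101-87812814), also outside any gene. It had rank 2431 and 5651 in E2 replicates 2 and 3 and no peak in replicate 1. With E2 plus fulvestrant the ranks were 12006, 7140 and 7369, with vehicle 27358 and 23763 in replicates 1 and 3, and with fulvestrant alone no library had a peak. The 5 libraries given E2 that had the peak were all stronger than any library not given it. The log2 rank difference was −1.93 (SD 1.26 and 0.23, n = 6 each; exact permutation p = 0.0152, adjusted p = 0.385), and −2.31 without the pair of libraries (exact permutation p = 0.00794, the smallest 5 against 5 can give).

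The Igf1 promoter went the other way in rank. The region at the start site (chr10:87858302-87862078) had a peak in all 12 libraries, with ranks of 1041, 1266 and 3587 with vehicle, 52668, 3988 and 1113 with E2, 5987, 13253 and 4288 with both agents, and 1347, 5492 and 1332 with fulvestrant alone. The groups overlapped, and the difference of 1.69 had an exact permutation p of 0.0714 (adjusted p = 0.462). It was 1.495 without the pair of libraries (exact permutation p = 0.0794) and 1.19 without E2 replicate 1 alone (exact permutation p = 0.128). Only 2 of 22 alternative settings gave a p under 0.05. In these the difference was 2.18 without E2 replicate 3 (exact permutation p = 0.0152) and 1.99 without fulvestrant replicate 2 (exact permutation p = 0.0303). Fold at the promoter did not follow the rank, with 3.62, 6.68 and 10.7 in the E2 libraries against 3.82 to 6.87 with vehicle.

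**Figure D3:**
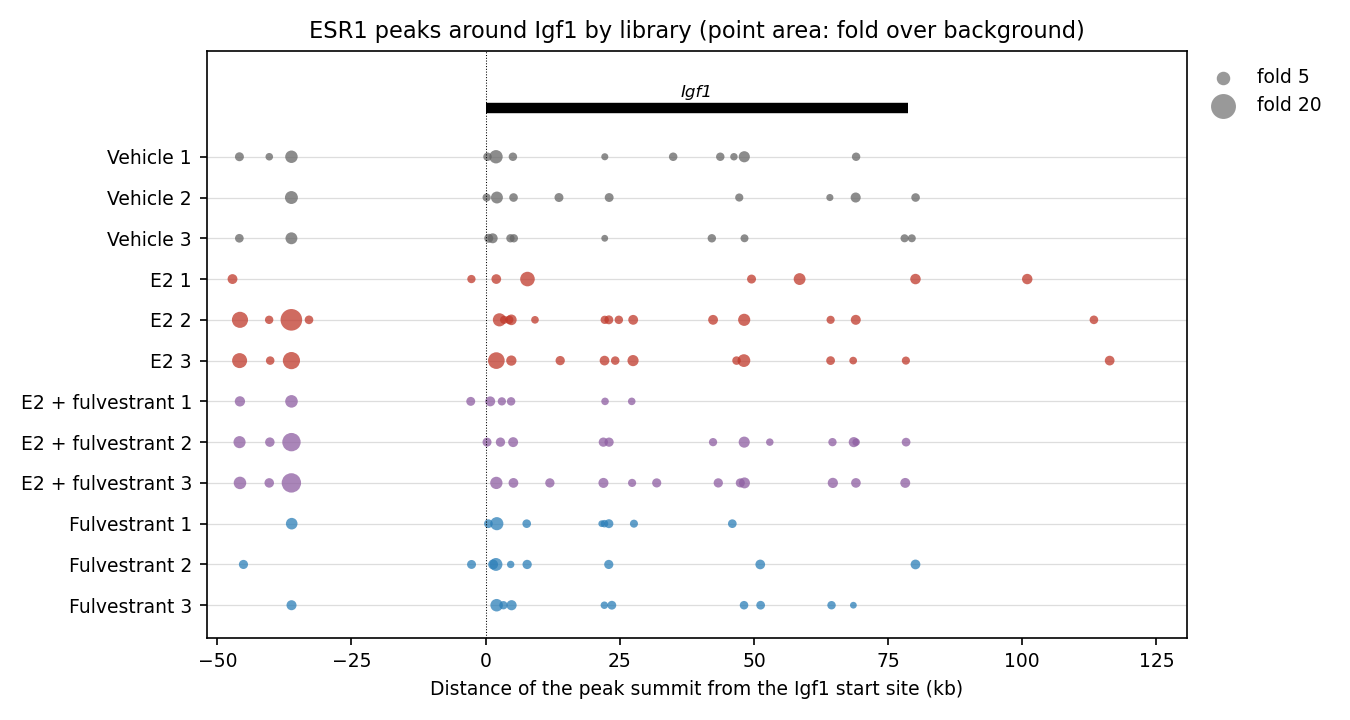
ESR1 peaks around Igf1, 1 row per library; the x axis is the distance of the summit from the start site in kb, point area is the fold over local background, colours are treatments and the black bar is the gene. The 2 upstream columns of points near −46 and −36 kb are largest in E2 replicates 2 and 3 and in E2 plus fulvestrant replicates 2 and 3.

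Igf2, the fetal ligand, had little ESR1 signal. Its 12 regions held 8 peaks in E2 replicate 1, 6 in fulvestrant replicate 2, 1 each in E2 replicate 3 and E2 plus fulvestrant replicate 2, and none in the other 8 libraries. The strongest, at the promoter (chr7:142667471-142668317), had peaks only in E2 replicate 1 (rank 20579) and fulvestrant replicate 2 (rank 68044), the libraries with low relative depth and many repeat-masked peaks. The part of those library properties in the Igf2 peaks was not tested.

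Igf1r, the signalling receptor, had the most regions, 105. Its promoter (chr7:67949737-67956376) was occupied in all 12 libraries, with ranks between 178 in fulvestrant replicate 2 and 2775, and the difference with E2 was 0.24 (exact permutation p = 0.766, adjusted p = 0.955). Inside the gene, an intronic region (chr7:68048530-68049047) had a peak in 5 of 6 libraries given E2 and 0 of 6 not given it. Its ranks were 22901 and 29378 in E2 replicates 2 and 3 and 13838, 13447 and 21719 with E2 plus fulvestrant, so it was a weak peak wherever it occurred, with folds of 3.33 to 3.77. Fisher's exact test gave p = 0.0152 (adjusted p = 1 over the 228284 regions). The library given E2 that lacked it was E2 replicate 1.

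That intronic region was also 1 of 2 at these loci found in 3 of 3 libraries with E2 plus fulvestrant and 0 of 3 with vehicle, a property of 0.569% of all regions. The other, deeper in the same gene (chr7:68198358-68198762), had ranks of 13518, 4755 and 6361 with E2 plus fulvestrant, 45916 in E2 replicate 2 and 32737 in fulvestrant replicate 3. No region here was in 3 of 3 E2 libraries and 0 of 3 vehicle libraries (0.344% of all regions were), or in 3 of 3 E2 libraries and 0 of 3 with E2 plus fulvestrant (0.207%). Without E2 replicate 1 and fulvestrant replicate 2, the loci held 250 of 122857 merged regions. Of the 250, 8 were in both remaining E2 libraries and in no vehicle library, a smaller share than the 6.22% of all regions. Of the 8, 3 lay in Igf1r introns and 1 each at Igf1, Igf2r, Igfbp4, Igfbp6 and Igfbp7. In the same setting 4 of the 250 were in both E2 libraries and absent with E2 plus fulvestrant, 1 each at Igf1r, Igfbp3, Igfbp6 and Igfbp7. That was again a smaller share than genome-wide (2.96%).

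Igf2r, the clearance receptor, had 64 regions, of which 2 were in all 12 libraries. These were its own promoter (chr17:12766829-12770124), with ranks from 4312 to 24907, and the promoter of Airn, the noncoding transcript that runs antisense within Igf2r (chr17:12739599-12743085), with ranks from 4143 to 22792. The log2 rank difference was 0.82 at the Igf2r promoter (exact permutation p = 0.0801, adjusted p = 0.480) and 0.14 at the Airn promoter (exact permutation p = 0.747). The strongest region over all libraries was intronic (chr17:12722137-12726932), with ranks of 2010 to 10014 in 11 libraries, no peak in E2 replicate 1 and a difference of 0.75 (exact permutation p = 0.227, adjusted p = 0.649).

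Igfbp6 stood at the head of the binding proteins in peak density and held the largest gain of the axis. The region 23.5 kb upstream (chr15:102120279-102121238), in an intron of the neighbouring gene Spryd3, had ranks of 723, 395 and 674 with E2 plus fulvestrant and 900 and 2771 in E2 replicates 2 and 3. It had rank 6803, 39551 and 16434 with fulvestrant, 24158 in vehicle replicate 2 and no peak in the other vehicle libraries. E2 replicate 1 had it only at rank 61261. Fold was 9.56 and 8.36 in E2 replicates 2 and 3 and 6.80 to 10.4 with E2 plus fulvestrant, against 2.38 in the vehicle library and 2.72 to 4.25 with fulvestrant. The log2 rank difference was −3.78 (SD 2.36 and 0.93, n = 6 each; exact permutation p = 0.0152, adjusted p = 0.385), a 13.7-fold better geometric mean rank with E2. Without the pair of libraries the difference was −4.53 (exact permutation p = 0.00794). All 3 E2 plus fulvestrant libraries ranked it above all 3 E2 libraries.

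The Igfbp6 promoter (chr15:102142650-102148205) was bound in every library at ranks of 146, 143 and 722 with vehicle, 1187, 1329 and 564 with E2, 216, 1243 and 1585 with both agents, and 252, 650 and 893 with fulvestrant alone. The groups overlapped (difference 1.24, exact permutation p = 0.0866, adjusted p = 0.495). Without the pair of libraries the difference was 1.31 (exact permutation p = 0.127). Only 1 of 22 alternative settings gave a p under 0.05, that without E2 plus fulvestrant replicate 1 (1.63, exact permutation p = 0.0238). The strongest region of the locus lay 41.2 kb upstream at the promoter of Tns2, which encodes the focal adhesion protein tensin 2 (chr15:102097084-102107416). It had ranks of 272, 207 and 168 with vehicle, 727, 460 and 302 with E2, 239, 611 and 846 with both agents, and 61, 131 and 143 with fulvestrant alone, a difference of 1.70 (exact permutation p = 0.00433, adjusted p = 0.385). Fold at this region was higher with E2, at 21.9, 11.998 and 13.3 against 7.84, 7.44 and 7.76 with vehicle, 9.03, 8.83 and 8.66 with both agents, and 10.7, 14.1 and 8.89 with fulvestrant alone. When summits within 150 bp were chained into regions, the rank difference there was 0.53 (exact permutation p = 0.825).

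Taking the strongest peak of each locus in each library, Igfbp6 had ranks of 61 to 168 in the 6 libraries not given E2 and 216 to 727 in the 6 given it, without overlap. The difference of 1.75 had an exact permutation p of 0.00216, the smallest 6 against 6 can give, and an adjusted p of 0.147 over all protein-coding genes. Of those genes, 1.07% had libraries that did not overlap in this direction and 10.4% had a weaker strongest peak with E2 at p under 0.05. With windows of 10 kb, which leave out the Tns2 promoter, the Igfbp6 difference was 1.24 (exact permutation p = 0.0866). Igfbp7 was the other locus with p under 0.05, with a difference of −1.38 (exact permutation p = 0.0108, adjusted p = 0.205), in a direction taken by 4.03% of genes at that p. The Igfbp7 value mixes sites. Its strongest peak was at the promoter in E2 replicate 1 (rank 1844), vehicle replicate 2 (5411) and fulvestrant replicate 2 (3924). With E2 plus fulvestrant it was in an intron (1099, 2369 and 1330).

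**Figure D4:**
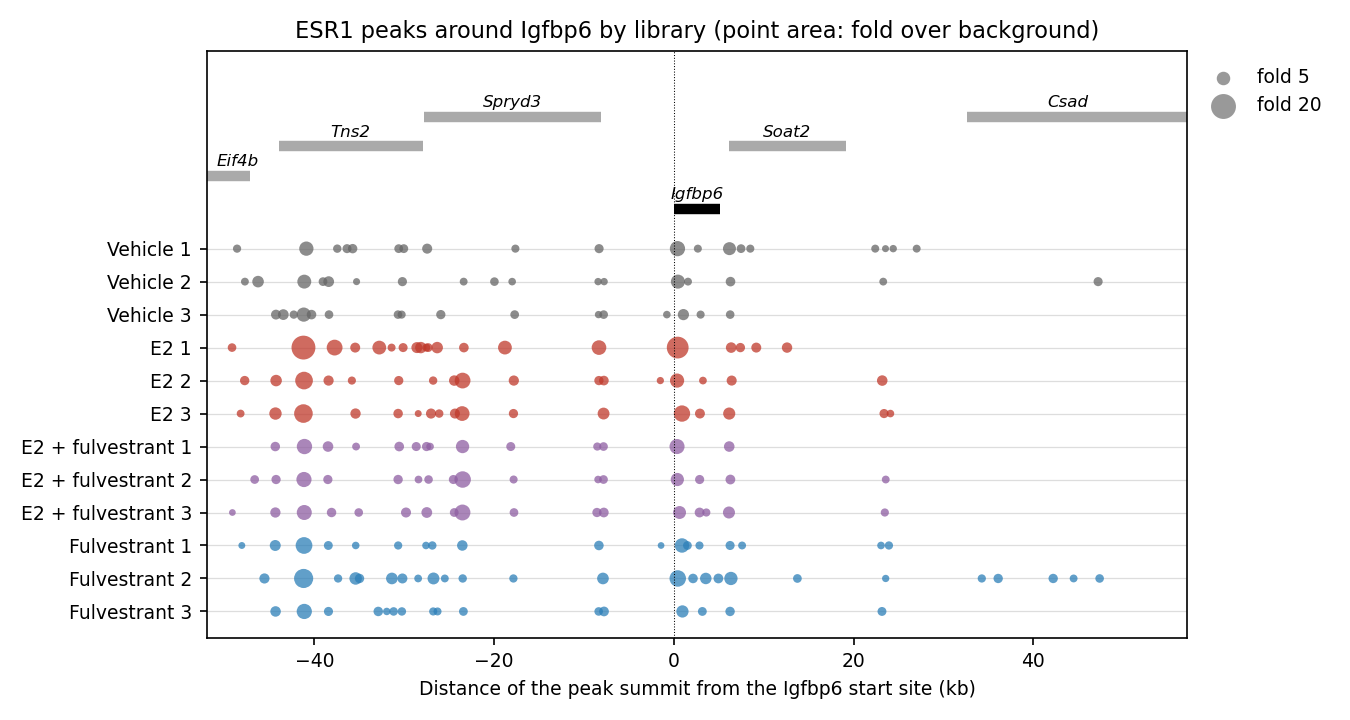
ESR1 peaks around Igfbp6, 1 row per library; the x axis is the distance of the summit from the Igfbp6 start site in kb, point area is the fold over local background, and grey bars are neighbouring genes. The column near −23.5 kb is large in E2 replicates 2 and 3 and wherever E2 was combined with fulvestrant, and small or absent otherwise, whereas the columns at Tns2 and at the Igfbp6 start site are present in all 12 libraries.

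At Igfbp7, a binding protein deposited in the extracellular matrix, the strongest region was intronic (chr5:77357246-77359010). It had ranks of 6152, 12665 and 4107 with vehicle, 63348, 2132 and 6483 with E2, 1099, 2369 and 1330 with both agents, and 7360, 11617 and 7283 with fulvestrant alone. The libraries with E2 plus fulvestrant were stronger than all 6 not given E2, and the E2 libraries overlapped them. The difference was −1.15 with all libraries (exact permutation p = 0.173, adjusted p = 0.593) and −1.70 without the pair (exact permutation p = 0.0238), or −1.82 without E2 replicate 1 alone (exact permutation p = 0.0108). Of 22 alternative settings, only the latter 2 gave a p under 0.05. The adjacent intronic region (chr5:77354782-77357147) differed by 0.82 in the opposite direction (exact permutation p = 0.0455, adjusted p = 0.433), and by 0.69 without the pair (exact permutation p = 0.135). With the replicate number as a block its p was 0.0556 by the exact permutation test, and 6 of 21 alternative settings gave a p under 0.05. The Igfbp7 promoter (chr5:77406645-77408464) was occupied in all 12 libraries at ranks of 1844 to 16569, with a difference of 0.02 (exact permutation p = 0.978).

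Igfbp4, whose protein is cleaved to release IGFs, had its strongest region 15 bp from an internal start site of the gene (chr11:99046101-99048313). Ranks were 30040 and 15465 in vehicle replicates 1 and 3, 11779, 10740 and 24005 with E2, 13551, 9557 and 6439 with both agents, and 13907, 32099 and 24890 with fulvestrant alone. The groups overlapped, and the difference of −1.02 had an exact permutation p of 0.0152 and an adjusted p of 0.385. The main Igfbp4 promoter (chr11:99040553-99042087) had a peak in 10 libraries and a difference of 0.10 (exact permutation p = 0.799).

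Igfbp2 and Igfbp5 shared their strongest region, an intergenic stretch 14431 bp from the Igfbp5 start site (chr1:72888752-72890044). It had a peak in 9 libraries at ranks of 7130 to 26910, and a difference of −0.43 (exact permutation p = 0.359, adjusted p = 0.770). Promoter peaks of both genes occurred in at most 2 libraries. The Igfbp3 promoter (chr11:7213595-7214295) had peaks in vehicle replicate 3 (rank 18964), E2 replicate 1 (rank 43482) and fulvestrant replicate 2 (rank 16162) only.

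**Figure D5:**
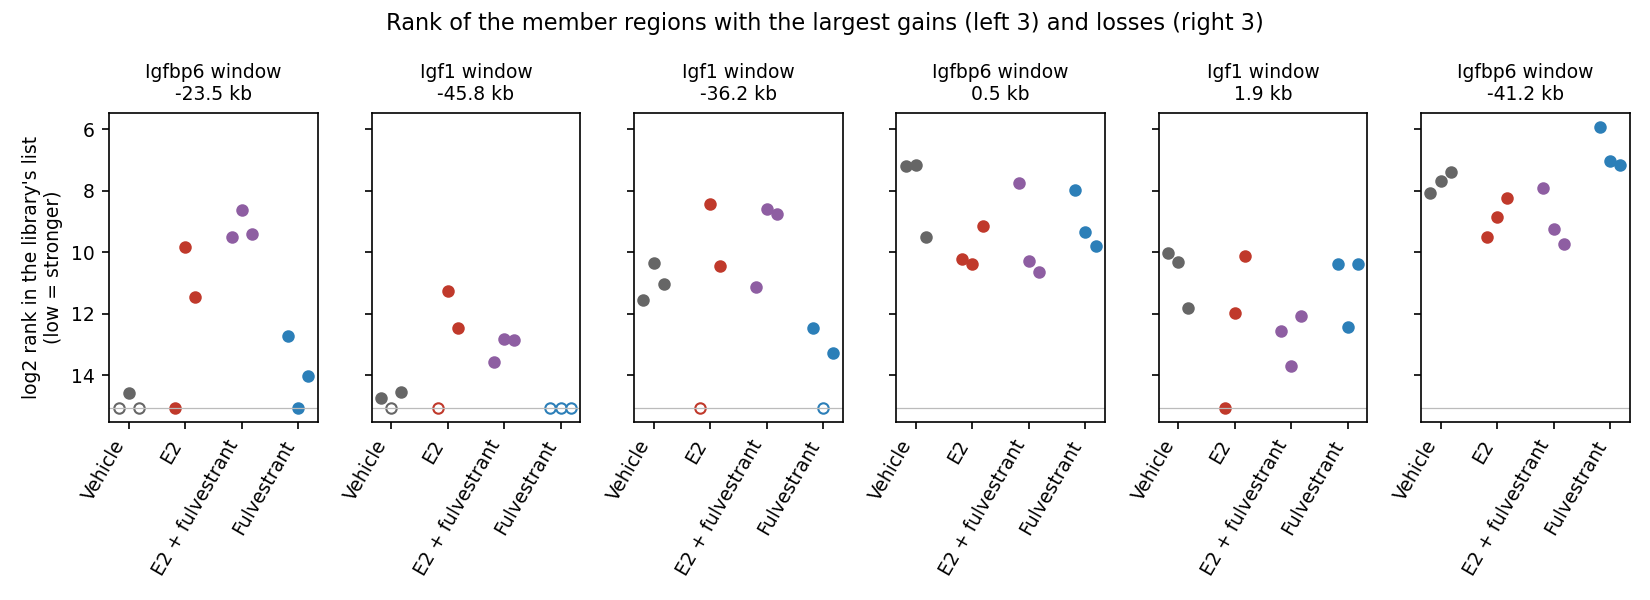
log2 rank in each library's list (y axis, inverted so that strong peaks are at the top) of the 3 regions with the largest gains (left) and the 3 with the largest losses (right) with E2, by treatment on the x axis; open points are libraries without a peak, set to the length of the shortest list (grey line). In the 3 left panels the highest points are E2 or E2 plus fulvestrant libraries, and the low E2 point is replicate 1. At the Igf1 region 36.2 kb upstream, vehicle points lie among them. There, vehicle replicates 2 and 3 (ranks 1310 and 2104) lie above E2 plus fulvestrant replicate 1 (2233).

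Whether the effect of E2 differed with and without fulvestrant was tested for 29 values, the peak number and strongest rank of each locus and the log2 rank of 9 regions. None had a permutation p under 0.05. All 12 libraries were exchanged freely, so an effect of E2 itself widens the spread that the difference is set against. The p is therefore not exact for this question, and the test cannot show that the effects were alike. The smallest permutation p was 0.0952 (adjusted p = 0.980), for the region 36.2 kb upstream of Igf1, where the E2 difference was 0.33 without fulvestrant and −4.12 with it. Each value there rests on a group that includes E2 replicate 1 or fulvestrant replicate 2, both without a peak.

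Sequence near the summits was compared with that of all regions. The element GGTCANNNTGACC with at most 1 mismatch was found within 100 bp of the summit in 0 of the 54 regions with peaks in at least 6 libraries, which allows a share of up to 5.56%, and in 3.36% of the 29321 such regions genome-wide. Over all 329 regions it was in 3 (0.912%), against 1.35% of all. With at most 2 mismatches it was in 8 of the 54 (14.8%, against 13.7%), including both upstream Igf1 regions and the 2 Igfbp7 intronic regions, as the printed sequences show for 3 of them. Single arms, GGTCA or its reverse complement, were in 33.3% of the 54 (36.7% of all). The AP-1 site, TGACTCA or TGAGTCA, was in 4 (7.41%, against 5.30%), and the TEAD site GGAATG in 7 (12.96%, against 12.2%), each searched on both strands. The region upstream of Igfbp6 with the largest gain held a single arm and no match to the longer element within 2 mismatches. Genome-wide, 19.9% of the regions stronger with E2 at p under 0.05 and 0.685% of those weaker held the element with at most 1 mismatch.

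A further list of 23 genes of the pathway was examined in the same way, among them the insulin receptor substrates, the proteases that cleave binding proteins, stanniocalcins, adaptors and downstream kinases. By the rank of the strongest peak, 4 of 23 were stronger (4.03% of protein-coding genes were) and 2 weaker (10.4%) with E2 at an exact permutation p under 0.05. Of the 22 that are protein-coding, 0 passed adjustment over all protein-coding genes, and the noncoding H19 had an exact permutation p of 0.844, not adjusted. The stronger ones, named after their values were seen, were Pappa2 (log2 rank difference −2.61), Htra1 (−1.76), Foxo1 (−1.26) and Grb10 (−1.18), and the weaker ones Igfals (0.84) and Shc1. Over all libraries, the strongest region of the Igfals locus was at the promoter of another gene, Eme2, and that of the Foxo1 locus was intergenic. Neither can be assigned to its locus gene by position alone. Those of Pappa2, Htra1 and Grb10 were intronic. PAPPA2 and HTRA1 are proteases known to cleave IGF-binding proteins, FOXO1 is a transcription factor that AKT restrains, GRB10 is an inhibitory adaptor of the insulin and IGF1 receptors, and IGFALS holds IGFs in a circulating complex. The median log2 rank difference over the 23 was 0.05. Shc1, an adaptor of receptor tyrosine kinases, was the only one whose strongest region, its promoter, ranked in the top 1000 of at least 6 libraries (9), and its strongest peak had a difference of 1.15 (exact permutation p = 0.0152, adjusted p = 0.216).

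The Igf1 region 36.2 kb upstream was compared with the strongest region of 21621 other protein-coding genes over the 12 libraries. The genes whose strongest region had the most similar log2 ranks were Pdzrn3 (Pearson's r = 0.974), Pitrm1 (0.967) and Trabd2b (0.966). These values describe 12 libraries that share treatments and the low-depth pair, and were the highest of many.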

How the data were processed

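ESR1 ChIP-Seq was performed on 12 libraries, 3 per treatment, grouped by their labels; the input sample was not analysed here. Reads were processed by the authors, whose methods name Trimmomatic for trimming, Bowtie2 for alignment to mm10, Picard for duplicate removal and MACS2 for peak calling; the submitters' processing notes give Trimmomatic 0.39 and Picard 2.21.4. Whether blacklisted regions had been removed from the deposited lists was not given in the sources used here. The deposited lists gave for each peak its position, a score, the fold over local background (a ratio), and the authors' −log10 p-value and −log10 q-value. The smallest −log10 p was 2.00 to 2.04 per list, so lists were kept by p-value. Read totals were not used here; relative depth was recovered from fold and p-value under the Poisson model of the peak caller, and the number of libraries limits the precision. Motif shares and the limit that a count of 0 allows cover counting error only.

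Gene bodies and start sites were taken from GENCODE vM21, and sequences from the RefSeq GRCm38.p6 genome, the assembly of mm10. Ranks, merged regions and tests were computed in Python 3.11.15 with numpy 2.4.6, pandas 2.3.3 and scipy 1.17.1, and the tests were run first on simulated data. Comparisons used two-sided exact permutation tests (924 arrangements for 6 libraries against 6) or Fisher's exact test, with Benjamini-Hochberg adjustment over all 29321 regions with a peak in at least 6 libraries, all 228284 regions, or all 21938 protein-coding genes. Regions named were the strongest of each locus by mean log2 rank, the 3 largest gains and the 3 largest losses with E2, and regions separated by presence. The own promoters of the loci, regions named for an unadjusted p under 0.05 or a Fisher p, the loci named for peaks of −log10 q of 10 or more, and the search allowing 2 mismatches were chosen after seeing the data. The members and gene lists were chosen with earlier results of these data known. The study's count model with batch adjustment could not be fitted to peak lists.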

Additional observations from a re-analysis of the deposited data

How the results depend on the processing

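No region at the loci passed adjustment under any alternative that was run, nor did the strongest peak of Igfbp6 or Igfbp7, and of 239 values of single regions and loci recomputed, 1 changed direction. When summits within 150 bp were chained into regions, the difference at the Igfbp6 promoter was −0.023 instead of 1.24, and the cause was not tested. Counts of 5 or fewer moved easily. The counts below show how far they moved. Where no share over all regions or genes stands beside a count, it is not a result about these loci. With a q-value of at most 0.05, 0 loci separated E2 plus fulvestrant from vehicle and 1 region was weaker with E2 at p under 0.05. With a −log10 q of at least 10 (11 regions tested at the loci), 2 regions were in all E2 and no vehicle libraries, 1 separated E2 from E2 plus fulvestrant and 1 E2 plus fulvestrant from vehicle, 5, 3 and 0 loci did so by peak number, 1 locus had p under 0.05, and 1 region was stronger and 1 weaker. With 10 kb windows (35 regions tested), 0 loci separated E2, or vehicle, from E2 plus fulvestrant, 1 locus (Igfbp7, no longer Igfbp6) had p under 0.05 for its strongest peak, and 1 region was stronger and 1 weaker. With chained summits, 5 regions were in all vehicle and no E2 libraries, E2 and E2 plus fulvestrant were separated by 2 regions in each direction, 2 were in all vehicle and no E2 plus fulvestrant libraries, and 1 was weaker with E2. With each list limited to its strongest peaks, the peak number in the loci differed by −19.7 between E2 and vehicle, −16.0 between E2 and E2 plus fulvestrant and −8.33 between given and not given E2, all positive with full lists. By library the number was 33, 69 and 64 with E2, 69, 75 and 81 with vehicle, and 72, 72 and 70 with both agents. The lowest was E2 replicate 1. With the limited lists, 2 loci separated E2 from vehicle, 0 separated E2 from E2 plus fulvestrant, and 1 region was absent with E2 and in all E2 plus fulvestrant libraries. Ranking by fold left 1 region weaker with E2, and rank percentiles left 1 weaker and 4 loci with p under 0.05 for the strongest peak.

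Leaving out E2 replicate 1 and fulvestrant replicate 2 together gave 8 of 250 regions in the E2 and no vehicle libraries (6.22% of all regions were). It gave 4 of 250 in the E2 and no E2 plus fulvestrant libraries (2.96% of all). There were 2 loci that separated E2 from vehicle and 1 locus with p under 0.05 for peak number. In that setting 6 of 54 regions were stronger and 1 weaker with E2, against 11.7% and 5.49% of all regions. Genome-wide, the share in all E2 and no vehicle libraries was 0.344% of 228284 regions with 12 libraries and 6.22% of 122857 without the pair. Fewer libraries and the absence of E2 replicate 1 go together in that setting, and their parts were not tested. Leaving out 1 library at a time, regions in all E2 and no vehicle libraries numbered 0 to 8 (8 without E2 replicate 1, 2 without vehicle replicate 1, 1 without vehicle replicate 2 or E2 replicate 3) and the opposite 0 to 1 (vehicle replicate 3). Regions in all E2 but no E2 plus fulvestrant libraries numbered 0 to 4 (4 without E2 replicate 1, 1 without E2 replicate 3), and the opposite 0 to 4 (4 without E2 plus fulvestrant replicate 1, 1 without its replicate 3 or E2 replicate 2). Regions of E2 plus fulvestrant and not vehicle numbered 2 to 9 (9 without E2 plus fulvestrant replicate 1, 4 without its replicate 2 or 3), and the opposite 0 to 2 (vehicle replicate 3). Loci separating E2 from vehicle numbered 0 to 3 (3 without E2 replicate 2, 2 without E2 replicate 1 or vehicle replicate 1), E2 from E2 plus fulvestrant 1 to 2 (2 without E2 replicate 2 or E2 plus fulvestrant replicate 3), and E2 plus fulvestrant from vehicle 1 to 4 (4 without vehicle replicate 1 or E2 plus fulvestrant replicate 1, 2 without vehicle replicate 2). Loci with p under 0.05 for peak number numbered 0 to 3 (3 without fulvestrant replicate 2, 1 without E2 replicate 1 or E2 plus fulvestrant replicate 1). Regions stronger with E2 numbered 3 to 6 (6 without E2 replicate 1), and regions weaker 1 to 3, with 1 without vehicle replicate 1 or 3, E2 replicate 1, E2 plus fulvestrant replicate 2 or 3, or fulvestrant replicate 3.

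With the replicate number as a block, 1 region was weaker with E2 instead of 2. Not every same-number pair had a correlation of its deviations from the group means above 0.1 (7 of 18, range −0.55 to 0.43), so the numbers were not taken to pair the libraries. The libraries numbered 3 did deviate together, with 5 of 6 pairs above 0.1 and the lowest at 0.0753, against 1 of 6 each for numbers 1 and 2. Counts of separated regions and the peak number over all loci have no test, so the replicate block does not apply to them. At 39.1% of the median depth, E2 replicate 1 limits what 3 against 3 can show for E2.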
